A study of Mus musculus with 24 samples.

Results

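The endocannabinoid system was followed here through 7 genes in the nucleus accumbens (NAc) of the mouse. These were the gene of the cannabinoid receptor CB1 (Cnr1) and the genes of 6 enzymes that make or break down its lipid ligands (Dagla, Daglb, Mgll, Abhd6, Napepld and Faah). They were chosen by name from the 52636 genes counted in every library, with earlier results of these data known. All 7 passed the filter on low counts in every comparison.

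Libraries came from bilateral NAc of C57BL/6 mice (C57BL/6J in the study's methods) at an age of 50 days, with 6 animals in each of 4 groups: control (Con) females, Con males, and females and males of litters that went through maternal separation with unpredictable maternal stress (MSUS) from postnatal day 1 through 14. Con litters were left undisturbed, and none of the animals had been given cocaine. Separation lasted 2 hours a day in the series description and 3 hours in the study's methods. Per those methods, each female group held equal numbers of animals in high- and low-estrogen stages of the cycle. The labels do not tie animals to litters, so animals of a group may be littermates. Each library was made from a tissue punch of 1.5 mm after depletion of ribosomal RNA, and it held 39923666 to 70575745 read pairs assigned to genes. The study asked how early-life stress and sex alter transcription in this reward region before any exposure to cocaine.

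Endocannabinoids are lipid messengers that neurons make on demand, mostly on the postsynaptic side. They travel backwards across the synapse to CB1 receptors on axon terminals and lower the release of glutamate or GABA. The 2 best-known ligands have separate enzymes: diacylglycerol lipases make 2-arachidonoylglycerol (2-AG), which monoacylglycerol lipase and ABHD6 hydrolyse, while NAPE-PLD is one source of anandamide, which fatty acid amide hydrolase (FAAH) degrades. In the NAc this signalling takes part in synaptic plasticity and in the rewarding effects of drugs.

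The genes lie on 5 chromosomes (GRCm38, the same assembly as mm10). Cnr1 and Faah are both on chromosome 4, at 33924593 to 33948831 on the plus strand and at 115967145 to 116017926 on the minus strand. Napepld (21662901 to 21701396, minus strand) and Daglb (143464584 to 143505942, plus strand) are on chromosome 5, Mgll is on chromosome 6 (88724412 to 88828360, plus strand), Abhd6 on chromosome 14 (8002902 to 8056763, plus strand) and Dagla on chromosome 19 (10245265 to 10304877, minus strand). All are protein-coding. No exon of the 7 overlaps an exon of another gene on the same strand, while 2309 of the 9567 exonic bases of Daglb overlap exons of Rac1 and 167 of the 5077 of Mgll overlap Gm26588 on the opposite strand. Only pairs from the transcribed strand were counted, and these outnumbered pairs on the other strand 18.1 to 19.4 times in every library.

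The start regions of Cnr1, Faah and Napepld are shown because the levels of these 3 genes rose and fell together closely from animal to animal. Their pairs had r from 0.85 to 0.92, as given further on. Daglb ran as closely with Faah (r = 0.87) but less closely with Cnr1 (0.76) and Napepld (0.74). Each sequence runs from 250 bases before to 50 bases after a RefSeq transcription start (GRCm38.p6), 5′ to 3′ on the gene's strand, and is the window nearest to the start of the gene in the annotation. Capitals mark GC boxes (GGGCGG) and CACCC boxes (CACCC), searched on both strands.
Cnr1, chr4:33924394-33924693, plus strand: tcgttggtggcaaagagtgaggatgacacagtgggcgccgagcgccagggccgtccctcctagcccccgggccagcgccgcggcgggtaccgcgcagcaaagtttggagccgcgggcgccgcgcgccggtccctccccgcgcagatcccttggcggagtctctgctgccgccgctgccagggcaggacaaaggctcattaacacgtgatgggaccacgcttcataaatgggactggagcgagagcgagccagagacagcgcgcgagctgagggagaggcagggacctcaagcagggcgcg
Faah, chr4:116017875-116018174, minus strand: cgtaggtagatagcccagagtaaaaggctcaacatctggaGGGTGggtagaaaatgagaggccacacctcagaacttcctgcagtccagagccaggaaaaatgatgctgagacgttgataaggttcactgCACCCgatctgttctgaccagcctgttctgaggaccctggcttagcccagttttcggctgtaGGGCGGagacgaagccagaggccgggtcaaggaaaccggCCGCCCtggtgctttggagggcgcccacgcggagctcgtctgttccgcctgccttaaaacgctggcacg
Napepld, chr5:21701573-21701872, minus strand: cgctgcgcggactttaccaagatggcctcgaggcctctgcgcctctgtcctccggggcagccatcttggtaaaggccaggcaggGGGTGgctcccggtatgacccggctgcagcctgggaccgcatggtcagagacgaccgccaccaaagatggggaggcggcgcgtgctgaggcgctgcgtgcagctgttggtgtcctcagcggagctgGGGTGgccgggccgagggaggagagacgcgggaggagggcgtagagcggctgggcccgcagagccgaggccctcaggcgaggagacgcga

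The Cnr1 and Napepld windows had 69% and 70.3% G and C bases and the Faah window 57.7%, against a median of 52.7% over 32851 windows of the same length. The Faah window held 2 GC boxes and 2 CACCC boxes, the Napepld window 2 CACCC boxes, and the Cnr1 window neither. A second Cnr1 window further upstream, chr4:33924014-33924313, held 5 GC boxes and 1 CACCC box. Over all windows 35.7% held a GC box and 57.5% a CACCC box. None of the 3 windows shown held CCAAT or TATAAA, which occurred in 37.4% and 13.6% of all windows. RefSeq windows were matched to 6 of the 7 genes, with none for Dagla.

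Per kilobase of exon, the order of levels over the 24 libraries was Mgll, Cnr1, Dagla, Abhd6, Daglb, Faah and Napepld. Mgll, the main 2-AG hydrolase of the brain, had a mean level of 29.0 ± 2.76 CPM per kb (SD, n = 24), where CPM are the gene's counts relative to the library's scaled total. Cnr1 followed at 21.5 ± 7.62 and was lower than Mgll in 22 of the 24 libraries. Dagla, the diacylglycerol lipase that makes most of the 2-AG released at synapses, was at 16.3 ± 1.94 CPM per kb and was below Cnr1 in 19 libraries. Abhd6 stood at 15.3 ± 1.46 CPM per kb, below Dagla in 22 libraries, so the ranges of these neighbours overlapped.

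The remaining 3 genes were lower per kilobase by a clear step. This step depends on the division by length. In CPM, Abhd6 (mean 36.1) and Daglb (35.9) were alike and Faah had 28.5, with merged exons of 2365, 9567 and 7834 bases. Daglb, the second diacylglycerol lipase, had 3.75 ± 0.348 CPM per kb and Faah 3.64 ± 1.64. Daglb was above Faah in 17 libraries and below it in the rest, and these 2 levels did not differ beyond their spread. Napepld was lowest in every library at 1.75 ± 0.36 CPM per kb, which still rested on 246 to 583 counts a library.

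**Figure D1:**
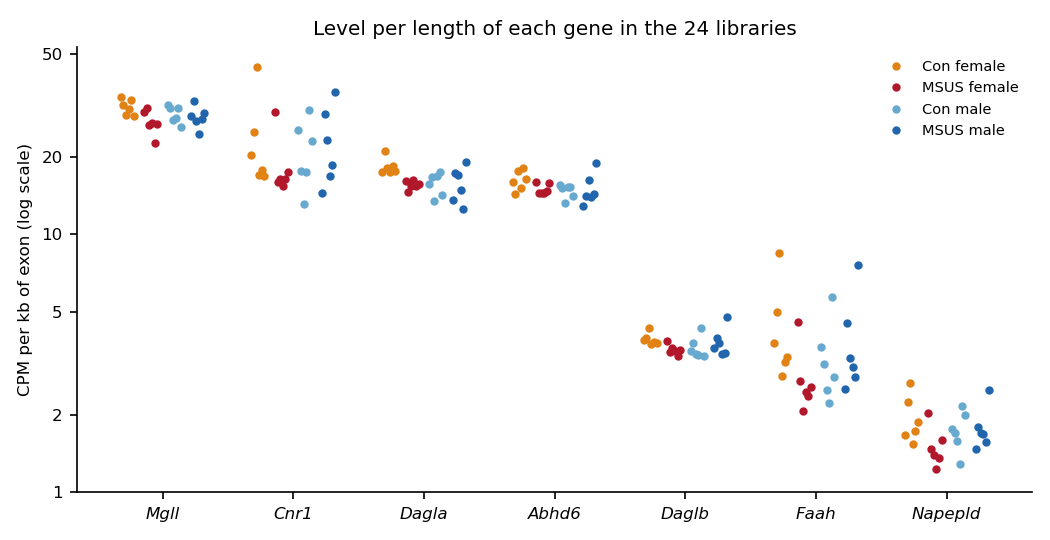
Level of each gene in CPM per kb of exon, on a log axis, with a point for each of the 24 libraries coloured by group. Mgll, Cnr1, Dagla and Abhd6 form an upper tier above 12 CPM per kb, and Daglb, Faah and Napepld a lower one, with the widest scatter in Cnr1 and Faah.

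The 7 genes also differed in how much they varied between animals of the same group. Faah and Cnr1 had within-group SDs of 0.52 and 0.46 on the log2 scale, larger than those of 98.2% and 97.6% of the 11951 genes with a mean of at least 5 CPM. Napepld followed at 0.26, at the 90.2 percentile. Mgll, Dagla, Daglb and Abhd6 had SDs of 0.12 to 0.15, near the median gene at 0.11. The highest Faah library held 4.10 times the CPM of the lowest, and for Daglb that ratio was 1.41.

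In females, MSUS animals had lower levels of 3 of the 7 genes than Con animals, and no gene of the 7 was higher. The 3 were Dagla and Daglb, which make 2-AG, and Mgll, which hydrolyses it (edgeR quasi-likelihood test, adjusted p under 0.10 over all genes). This contrast called 25.1% of all 20571 genes tested, and 11.9% of all genes as lower in MSUS, so a share of 3 in 7 is read against a broad difference between the groups. All 7 fitted log2 fold changes were below 0, with a median of −0.23 against −0.0027 over all genes. The 7 genes were chosen with earlier results of these data known, so these shares and medians only describe them. In bulk tissue, fewer cells of a type and less RNA per cell cannot be told apart.

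Dagla had the clearest separation. Con females had 99.8, 102.1 and 121.2 CPM (lowest, median and highest) and MSUS females 83.8, 89.4 and 93.1, so that every MSUS female lay below every Con female. A full separation in this direction was found for 3.6% of all genes. The group means were 105.1 ± 8.19 and 89.4 ± 3.35 CPM (SD, n = 6 each), and the log2 fold change was −0.23 ± 0.050 (SE, edgeR adjusted p = 0.0110). Dagla kept an adjusted p of 0.0093 to 0.0366 whichever female was left out.

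Daglb ranged from 35.9 through a median of 36.8 to 41.5 CPM in Con females and from 32.3 through 34.0 to 37.0 CPM in MSUS females. In this narrow range 5 MSUS females lay below every Con female and MSUS female 1 lay among them. Its log2 fold change was −0.13 ± 0.042 (SE, edgeR adjusted p = 0.0509). Leaving out MSUS female 2, 4 or 5 raised the adjusted p to 0.128, 0.104 and 0.107.

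Mgll had 146.2, 158.2 and 172.8 CPM (lowest, median and highest) in Con females and 114.7, 136.4 and 156.4 CPM in MSUS females. All 6 MSUS females were below the Con median, but MSUS females 1 and 2 overlapped the Con range. The log2 fold change was −0.19 ± 0.069 (SE, edgeR adjusted p = 0.0739). This call was the least stable of the 3: it was lost when any of Con females 1, 2 and 5 or MSUS females 3, 4, 5 and 6 was left out, with adjusted p between 0.118 and 0.156.

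Abhd6, which hydrolyses 2-AG on the postsynaptic side, did not pass. Its CPM ran from 33.9 through 38.2 to 42.8 in Con females and from 34.1 through 34.5 to 37.7 in MSUS females, with the MSUS values inside the Con range. The log2 fold change was −0.11 ± 0.055 (SE, edgeR adjusted p = 0.168). It passed without Con female 2, at an edgeR adjusted p of 0.0795.

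The receptor and the anandamide enzymes had fitted changes of equal or larger size that did not pass either. Faah had 22.1, 28.0 and 66.3 CPM (lowest, median and highest) in Con females and 16.2, 19.6 and 36.0 in MSUS females, and 5 of the 6 MSUS females lay below every Con female. Its log2 fold change was −0.67 ± 0.29 (SE, edgeR adjusted p = 0.132), the largest of the 7. The call turned on single animals, since the adjusted p was 0.0497 without MSUS female 1 and 0.260 without Con female 3. Without those animals the log2 fold changes were −0.86 and −0.38.

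Napepld had 6.08, 7.13 and 10.5 CPM in Con females and 4.86, 5.67 and 8.04 CPM in MSUS females, and 4 MSUS females were below every Con female. The log2 fold change was −0.36 ± 0.15 (SE, edgeR adjusted p = 0.106). The adjusted p was 0.0364 without MSUS female 1, the highest of its group, and 0.0685 without Con female 4, the lowest of its own.

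Cnr1 had 108.1, 122.7 and 286.2 CPM in Con females and 99.5, 105.8 and 191.8 CPM in MSUS females. Con female 3 and MSUS female 1 stood far above the rest of their groups, and 4 MSUS females were below every Con female. The log2 fold change was −0.34 ± 0.26 (SE, edgeR adjusted p = 0.399). It was −0.057 without Con female 3 and −0.52 without MSUS female 1.

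**Figure D2:**
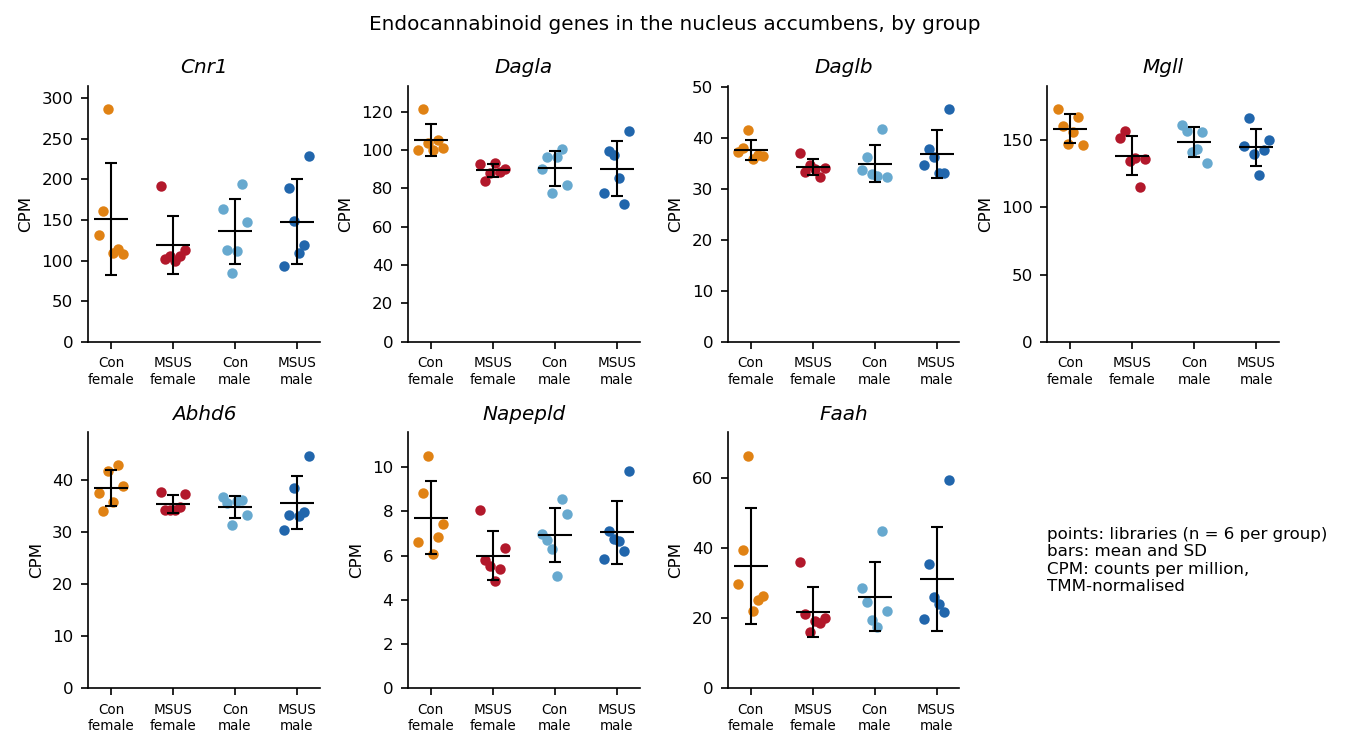
CPM of each gene in every library by group, with points for the 6 animals and bars for the mean and SD. Dagla in MSUS females (83.8 to 93.1 CPM) lies wholly below Con females (99.8 to 121.2 CPM), while Cnr1, Faah and Napepld each have 1 or 2 animals far above the others of a group.

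Enzyme genes were compared through 4 ratios in 4 contrasts: Dagla to Daglb, Mgll to Abhd6, Dagla to Mgll and Napepld to Faah. Only Dagla to Mgll and Napepld to Faah set synthesis against breakdown. Dagla to Daglb pairs the diacylglycerol lipases, and Mgll to Abhd6 pairs hydrolases of the same ligand. None of the 16 two-sided exact permutation tests over animals passed, and the lowest was p = 0.104 before and 0.471 after Benjamini-Hochberg adjustment (6 against 6 animals, where the smallest p possible is 0.00216). In females the Dagla to Mgll ratio differed by −0.03 on the log2 scale between MSUS and Con, the Dagla to Daglb ratio by −0.10 and the Napepld to Faah ratio by 0.26. These 3 differences were smaller than the SD of the ratio in at least 1 of the groups compared.

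In males, none of the 7 genes passed by edgeR, which called 0% of the 20691 genes tested (191 genes had an unadjusted p under 0.05, and DESeq2 also called 0). Dagla had a mean of 90.3 ± 9.08 CPM in Con males and 90.3 ± 14.4 CPM in MSUS males (SD, n = 6 each). Mgll was at 148.5 ± 11.1 and 144.6 ± 13.9 CPM and Daglb at 34.9 ± 3.61 and 36.7 ± 4.72. Cnr1 had 84.4, 130.5 and 194.8 CPM (lowest, median and highest) in Con males and 92.8, 134.2 and 228.6 in MSUS males. Values of the 2 male groups overlapped for every gene.

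The fitted male log2 fold changes lay between −0.039 ± 0.068 for Mgll and 0.25 ± 0.30 for Faah (SE), with edgeR adjusted p = 1 for all 7. The Faah value turned on single animals. It was −0.037 without MSUS male 6, which had 59.5 CPM against a group median of 25.1, and 0.47 without Con male 5, which had 44.9 CPM against 23.3. The Cnr1 value turned from 0.12 to −0.045 without MSUS male 6 and was 0.25 without Con male 5. The Dagla value of −0.0014 took the other sign under DESeq2's scaling, at 0.00080.

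Libraries numbered 1 to 12 and 13 to 24 each held 3 animals of every group, and the contrasts were repeated within each set. In females all 7 differences were below 0 in both sets: −0.20 and −0.26 for Dagla, −0.15 and −0.12 for Daglb, −0.29 and −0.11 for Mgll, and −0.73 and −0.49 for Faah (log2, 3 against 3). In males all 7 differences were below 0 in libraries 1 to 12 and above 0 in libraries 13 to 24: −0.23 and 0.44 for Cnr1, −0.38 and 0.81 for Faah, −0.20 and 0.26 for Napepld, −0.12 and 0.10 for Dagla, −0.050 and 0.19 for Daglb, −0.099 and 0.019 for Mgll, and −0.021 and 0.068 for Abhd6. The difference between these sets was not tested.

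Females and males were compared within each rearing group. Among Con animals all 7 fitted log2 fold changes were above 0, that is higher in females, and none passed, against 2.64% of 20641 genes called. Dagla came nearest, with a log2 fold change of 0.23 ± 0.071 (SE, edgeR adjusted p = 0.131), and all 6 Con females were above the Con male median, with 4 above every Con male. It passed when Con male 5 was left out, at an edgeR adjusted p of 0.0877, and so did Daglb, at 0.0924. Abhd6 had 0.15 ± 0.063 (edgeR adjusted p = 0.235), Daglb 0.12 ± 0.063, Mgll 0.10 ± 0.062 and Faah 0.41 ± 0.30.

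Among MSUS animals the fitted values were on the other side of 0 for all 7, again with none past the threshold, against 0.135% of 20714 genes. Faah was at −0.51 ± 0.29, Cnr1 at −0.31 ± 0.24, Napepld at −0.24 ± 0.14 and Daglb at −0.10 ± 0.071 (log2, SE), with adjusted p from 0.667 to 0.696 by edgeR. Dagla and Abhd6 were close to 0, at −0.015 ± 0.087 and −0.011 ± 0.079, and their sign changed under several of the settings given in the closing section. These comparisons share groups with the comparisons of MSUS and Con, so the values are not independent of them.

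Whether the MSUS difference itself differed between the sexes was tested by the group-by-sex interaction over all 24 animals. None of the 7 genes passed, nor did any of 21500 genes (0%) by edgeR, although 4031 genes had an unadjusted p under 0.05, DESeq2 called 390 over all animals, and edgeR called 3031 once MSUS male 1 was left out, with none of the 7 in either case (lowest adjusted p without that animal 0.142, for Dagla). The interaction terms were all below 0: −0.92 ± 0.43 for Faah, −0.46 ± 0.38 for Cnr1, −0.40 ± 0.21 for Napepld, −0.23 ± 0.12 for Dagla, −0.21 ± 0.098 for Daglb, −0.16 ± 0.10 for Mgll and −0.15 ± 0.10 for Abhd6 (log2, SE). Adjusted p ran from 0.256 to 0.491. A call in females and none in males is therefore not shown to be a difference between the sexes for any of the 7.

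**Figure D3:**
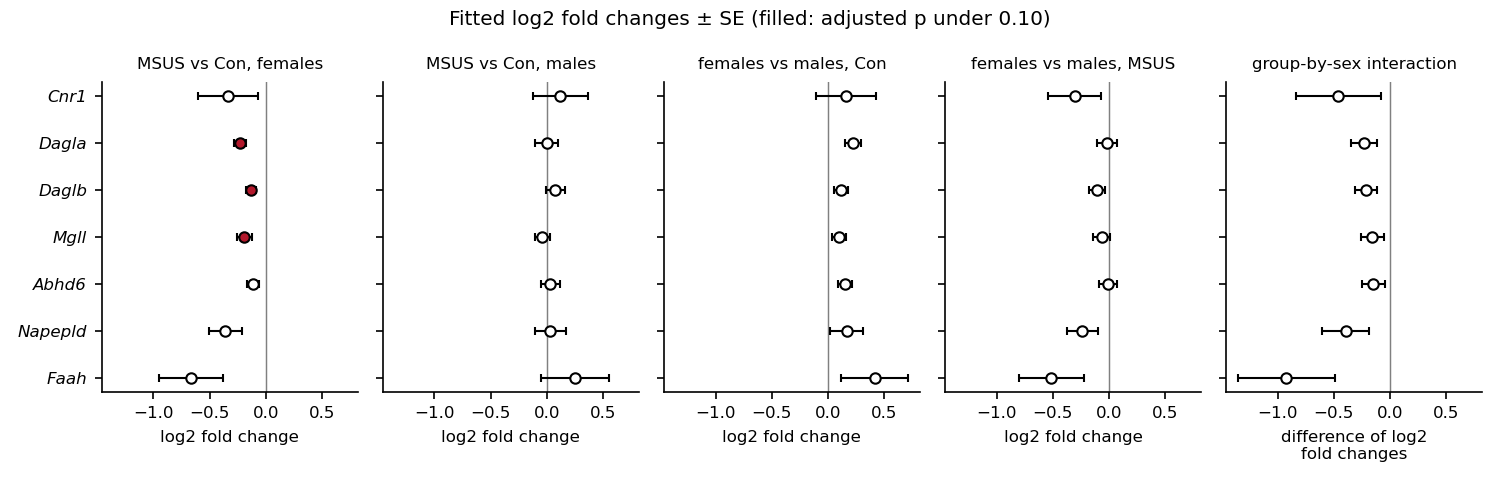
Fitted log2 fold change and SE of each gene in the 5 comparisons, with filled points for adjusted p under 0.10. Filled points appear only for Dagla, Daglb and Mgll in MSUS against Con females, and the female values of all 7 genes lie left of 0.

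The 7 genes did not vary independently of one another. After subtraction of group means, Pearson's r over the 24 libraries was 0.92 between Cnr1 and Faah, 0.90 between Faah and Napepld, 0.85 between Cnr1 and Napepld, and 0.87 between Faah and Daglb (Spearman's rho 0.85, 0.84, 0.79 and 0.76). Con female 3 and MSUS male 6 were the highest libraries for each of Cnr1, Faah and Napepld. Dagla and Daglb, which share an enzymatic function, had r = 0.69. Mgll stood apart from the rest, with r between 0.15 for Napepld and 0.40 for Daglb. All of these values come from the same libraries and describe them only.

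The genes whose log2 CPM ran closest to each member over the same libraries were ranked among 11179 genes. For Cnr1 these were Ndnf (r = 0.965), Pex5l and Pde4a, and for Faah they were Mtfp1 (r = 0.988), Dlgap1 and Ank2. Napepld ran closest to Car10 (r = 0.952), Sphkap and Angel1, and Daglb to Car7 (r = 0.952), Syt7 and Lingo1. Dagla was most like Lpcat4 (r = 0.960), Snph and Brap. Abhd6 was most like Ghitm (r = 0.927), and Mgll had the weakest closest gene, Islr2 (r = 0.887).

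Markers of the cells in the punch were set beside these levels. All 8 markers of striatal projection neurons, the principal cells of the NAc, were detected in every library, at a summed 1523 to 4295 CPM, and none of them passed in any comparison of MSUS with Con. All 8 markers of cortical excitatory neurons, which neighbour the striatum, were detected as well, at a summed 129.5 to 1660 CPM. Their score (mean log2 CPM of the 8 genes) ranged 24.6-fold over the libraries. Con females had a median score of 4.79 and MSUS females one of 2.99, and the male medians lay between these, at 3.93 (Con) and 4.08 (MSUS). In females 7 of the 8 cortical markers were below 0 and 1 passed, with a median log2 fold change of −1.83. Oligodendrocyte markers passed as lower in MSUS females for 3 of 5 genes (5 below 0), interneuron markers for 2 of 6 (5 below 0) and an astrocyte marker for 1 of 5 (4 below 0). None passed among 5 microglial, 3 oligodendrocyte precursor and 4 endothelial markers. Over all genes this contrast called 11.9% as lower and 25.1% in either direction. The marker lists, too, were chosen with earlier results of these data known.

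Several of the 7 genes moved with the cortical score over the 24 libraries after group means were subtracted from both. The r and rho below leave out differences between groups, and permutations were made within groups. Faah had r = 0.847 (rho = 0.793, permutation p = 1e-05, the smallest that 100000 permutations can give, adjusted p = 7e-05), r = 0.843 without the 2 libraries farthest from the median, and r from 0.833 to 0.889 within the 4 groups. Daglb had r = 0.815 (rho = 0.798, permutation p = 1e-05, adjusted p = 7e-05) and 0.724 to 0.935 within groups. Cnr1 had r = 0.750 (rho = 0.714, permutation p = 6e-05, adjusted p = 0.00028), and 0.734 without the 2 farthest libraries. Napepld had r = 0.728 (rho = 0.685, permutation p = 0.0003) and Mgll r = 0.687 (rho = 0.693, permutation p = 0.00112), although Mgll showed no relation within Con females (r = 0.014). Dagla was looser, with r = 0.535 (rho = 0.497, permutation p = 0.0101, adjusted p = 0.0235) and r = −0.022 within MSUS females. Abhd6 had r = 0.475 (rho = 0.452, permutation p = 0.0271) and did not keep an adjusted p under 0.05. In all, 14 such relations were computed.

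**Figure D4:**
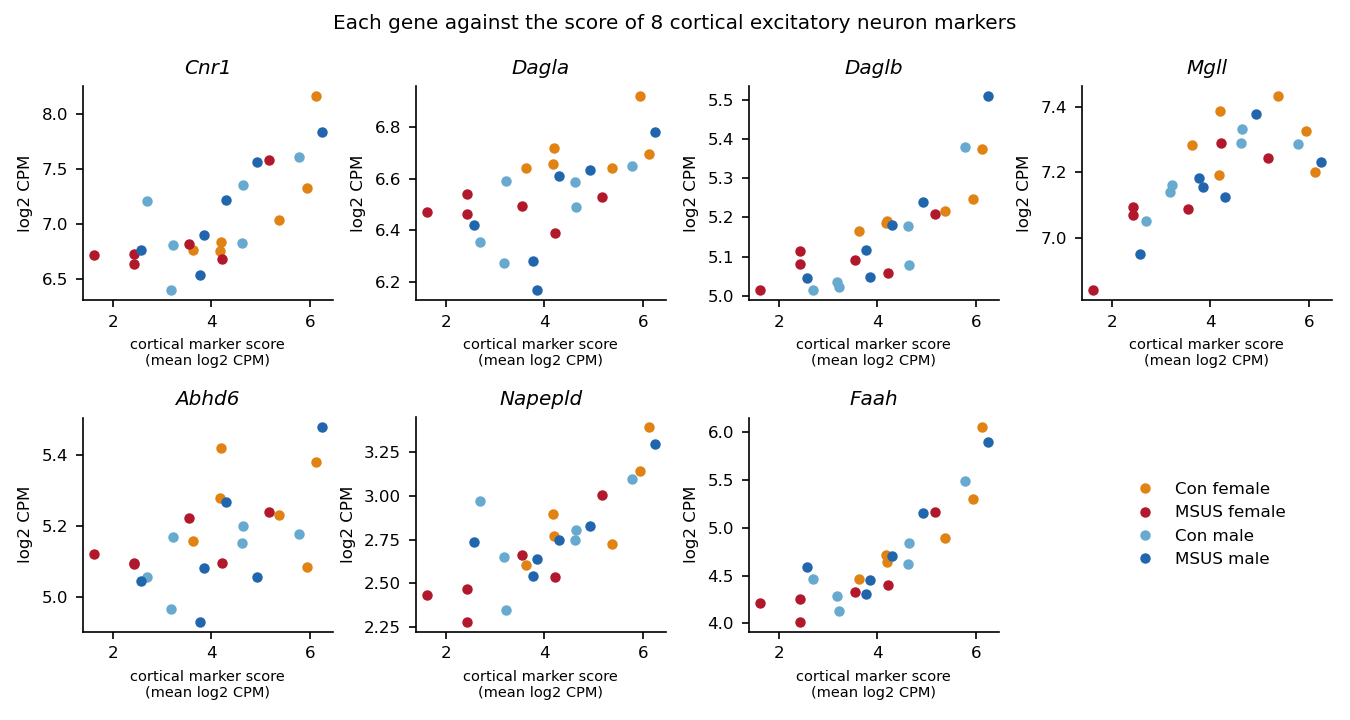
Log2 CPM of each gene against the cortical marker score (mean log2 CPM of 8 genes), with a point for each library coloured by group. Faah, Daglb, Cnr1 and Napepld climb with the score in every group, and MSUS females lie mostly at the low end of the score.

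With the cortical score as a covariate, Dagla was the 1 member that still passed in females, at a log2 fold change of −0.19 ± 0.062 (SE, edgeR adjusted p = 0.0937). Daglb shrank to −0.055 ± 0.043 and Mgll to −0.089 ± 0.072, and neither passed (edgeR adjusted p = 0.522 for Mgll). Faah went from −0.67 to −0.026 and Napepld from −0.36 to −0.041, while Cnr1 changed sign to 0.21 ± 0.23. Over all genes the calls fell from 5156 to 1859.

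The share of uniquely mapped read pairs that were assigned to no gene also separated the female groups without overlap, at 31.0 to 34.8% in Con and 36.3 to 43.9% in MSUS females, while the male groups overlapped (34.7 to 40.6% and 32.2 to 44.7%). After the same subtraction of group means, Dagla went down over the 24 libraries as this share went up (r = −0.558, rho = −0.483, permutation p = 0.0311, adjusted p = 0.0545), with r from −0.760 to 0.332 within groups. Since the female shares do not overlap, share and group cannot be told apart in a fit with both, and no gene passed in that fit by edgeR (1174 genes had an unadjusted p under 0.05). In that fit Dagla was at −0.21 ± 0.11, Daglb at −0.18 ± 0.089 and Mgll at −0.22 ± 0.15 (log2, SE, edgeR adjusted p = 0.760 each).

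Trends of the counts with base composition and length were removed in a further fit. They were estimated in each library from the same counts, without regard to group. Any difference between the groups that followed GC content or length was therefore removed with them, whatever its source. The transcripts of Dagla and Mgll had 58.8% and 55.3% G and C bases, the highest of the 7, and those of Cnr1 and Napepld 44.9% and 45.8%, the lowest. With offsets for GC content and length fitted for each library, Dagla fell to −0.072 ± 0.036 and Mgll to −0.077 ± 0.068 (adjusted p = 0.208 and 0.475, edgeR), and Daglb was at −0.064 ± 0.040. Napepld then passed, at −0.38 ± 0.14 (edgeR adjusted p = 0.0934), and Cnr1 and Faah changed little, at −0.34 and −0.57. The part of cell makeup and of library composition in the female differences was not tested beyond these fits.

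**Figure D5:**
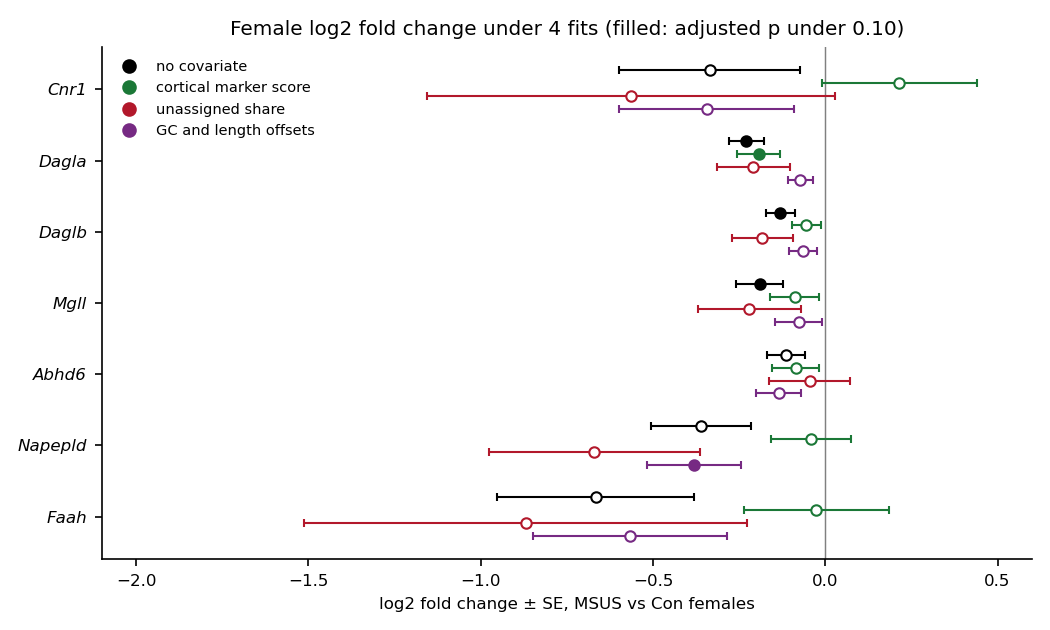
Log2 fold change and SE of each gene between MSUS and Con females in 4 fits, with no covariate, with the cortical marker score, with the unassigned share, and with offsets for GC content and length; filled points have adjusted p under 0.10. The cortical score moves Faah, Napepld and Cnr1 to 0 or beyond, and the GC and length offsets move Dagla and Mgll towards 0.

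A wider list of 30 genes of endocannabinoid receptors, synthesis, breakdown and transport was described in the fit with no covariate, and 27 of them were tested in females. Its values with the cortical score, the unassigned share or the GC and length offsets are not given here. Over all genes the female calls fell from 5156 to 1859, 0 and 3371 in those fits. Of the 27 tested, 10 were lower in MSUS females and none was higher. Among all genes, 11.9% were called lower and 25.1% in either direction. In the list, 22 of the 27 were below 0, with a median log2 fold change of −0.20 against −0.0027 over all genes. The list was chosen with earlier results of these data known, so these counts only describe it. Fabp5, a fatty acid binding protein that carries anandamide inside cells, had 44.2 ± 2.18 CPM in Con and 37.0 ± 1.80 CPM in MSUS females (SD, n = 6) and a log2 fold change of −0.25 ± 0.042 (SE, edgeR adjusted p = 0.0040). Naaa, an amidase of N-acylethanolamines, had a log2 fold change of −0.22 ± 0.047 and Abhd12, another 2-AG hydrolase, one of −0.21 ± 0.046 (edgeR adjusted p = 0.0106 and 0.0124). Plcb1, a phospholipase C that supplies diacylglycerol, had −0.19 ± 0.043 (adjusted p = 0.0128, edgeR).

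Of 5 further genes of N-acylethanolamine synthesis, 3 were lower in MSUS females, beside the same 11.9% of all genes. Gde1, a glycerophosphodiesterase of an alternative route to anandamide, went from 113.9 ± 12.5 to 92.0 ± 6.86 CPM (log2 fold change −0.30 ± 0.069, edgeR adjusted p = 0.0141). Pla2g4e, an N-acyltransferase that makes the substrate of NAPE-PLD, went from 4.0 ± 0.566 to 2.97 ± 0.311 CPM (−0.42 ± 0.11, edgeR adjusted p = 0.0220). Of the 7 Gq-coupled receptors and phospholipases C, 2 were lower, and of the 3 CB1-associated proteins none passed.

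Other receptors were scarce in this tissue. Cnr2, the CB2 receptor gene, had 6 to 22 counts a library and Gpr55 6 to 21, against 3465 to 14918 counts for Cnr1. Gpr18 had 0 to 2 counts, Gpr119 0 to 5 and Trpv1 2 to 16, and these 3 were too low to be tested between the female groups. Ppara, a nuclear receptor for N-acylethanolamines, had 104 to 219 counts and was lower in MSUS females (−0.24 ± 0.086, edgeR adjusted p = 0.0760).

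In males none of the 27 tested genes of the wider list passed, and the median log2 fold change was 0.03. Between Con females and males 1 gene passed: Ptgs2, which oxygenates 2-AG and anandamide, was higher in females at 4.96 ± 1.85 against 2.56 ± 0.60 CPM (log2 fold change 0.96 ± 0.23, edgeR adjusted p = 0.0782). None passed between MSUS females and males or in the interaction, where the medians were −0.09 and −0.25.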

How the data were processed

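RNA-seq libraries from bilateral NAc punches of 24 mice (6 animals in each of 4 groups) were used. Per the labels and the study's methods, the authors depleted ribosomal RNA, trimmed adapters, aligned read pairs to mm10 with STAR 2.6.1b (genes of GENCODE M15), and the files they deposited hold unscaled counts per gene, 1 file a library. The submitters' processing notes also list CASAVA 1.8, HTSeq and DESeq2. From these counts the column of the transcribed strand was taken. Libraries held 39923666 to 70575745 assigned pairs, so counting error was small beside the spread between animals for all 7 genes (at least 246 counts). No 2 libraries of a group agreed within sampling noise.

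Genes were filtered (filterByExpr, minimum count 10) and tested with edgeR 4.0.16 (TMM scaling, robust quasi-likelihood F test, R 4.3.3), with Benjamini-Hochberg adjustment over all genes tested and a threshold of adjusted p under 0.10. Each comparison was fitted on its own groups, and the interaction on all animals. The estrous stage term of the study's female model was left out, because the labels give no stage for 6 of the 12 females and give one to 6 males. The study's methods state that high- and low-estrogen stages were balanced between the female groups. Any spread with stage within a group was not modelled here. SEs are the log2 fold change divided by the square root of F. CPM were scaled by TMM over the 24 libraries and divided by merged exon length (GENCODE M21, 52489 of 52636 gene IDs matched). Ratios were compared by exact permutation tests over animals. Correlations with the marker score and unassigned share used 100000 permutations within groups. These correlations and likeness between genes used log2(CPM + 0.1) after subtraction of group means, which were also subtracted from the score and the share. The plain edgeR fit, the replicate block, the GC and length offsets and DESeq2 were tested on simulated counts. These counts were for the female comparison only, with the same dispersion for every gene and no outlying animals, and the other fits were not simulated.

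All 7 members were described in every comparison. From the wider list, up to 6 genes with the smallest p among those past the threshold were named, plus receptor levels, and for likeness the 3 annotated protein-coding genes with the highest r among genes of at least 5 CPM. Ppara was named after its values were seen. The members, the wider list and the marker lists were chosen with earlier results of these data known. Alternatives were DESeq2 1.42.0, its size factors, other filters, counts without regard to strand, a replicate block, the library set, the unassigned share and the cortical score as covariates, GC and length offsets, 1 fit of all libraries, a threshold of 0.05, and each animal left out in turn. Replicate numbers were not taken to pair animals.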

Additional observations from a re-analysis of the deposited data

Results flagged for a closer look

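Dixon's test was used to find libraries that stood apart from the other 5 of their group. Of 44 sets of 6 values examined (7 genes and 4 ratios in each of 4 groups), 6 held such a library. Chance gives about 1 in 20 for a single set. The sets share libraries and genes and are not independent, so their count cannot be read against that rate. Con female 3 stood apart for Cnr1, at 286.2 CPM against 108.1 to 160.5 CPM in the other Con females, and for Daglb, at 41.5 CPM against 35.9 to 38.0 CPM. MSUS female 1 stood apart for Cnr1, at 191.8 CPM against 99.5 to 112.6 CPM in the other MSUS females, and for Faah, at 36.0 CPM against 16.2 to 21.2 CPM. MSUS male 6 did so for Napepld, at 9.83 CPM with the next animal at 7.12 CPM, and Con female 2 for Dagla, at 121.2 CPM against 99.8 to 105.3 CPM. The cortical marker scores of Con female 3, MSUS female 1 and MSUS male 6 were 6.12, 5.17 and 6.24, each the highest of its group, and their part in these values was not tested.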

How the results depend on the processing

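The number of members called in females, 3 at first, was 5 with DESeq2 (Faah and Napepld added), 4 with counts without regard to strand (Abhd6 added, adjusted p = 0.0925, edgeR), 2 in the fit of all libraries (Daglb lost, adjusted p = 0.186, edgeR), 1 at a threshold of 0.05, 1 with the cortical score, 1 with GC and length offsets, 0 with the unassigned share and 0 with the replicate block together with the offsets. It was 1 to 5 with single animals left out, being 1 without MSUS female 4 or 5 and 5 without MSUS female 1 or Con female 4. Over all genes the female calls numbered 5156 of 20571 at first, 5770 of 36401 with DESeq2 and 6823 of 23506 without regard to strand. They numbered 4087 of 21500 in the fit of all libraries and 5084 of 20737 without Con female 4. There were 3126 at 0.05, 3371 with the offsets, 2077 with block and offsets, 1859 with the cortical score and 0 with the unassigned share (1174 at an unadjusted p under 0.05). Between Con females and males 1 member passed with DESeq2 and 1 with counts without regard to strand (Dagla in both), and 0 to 2 in the leave-one-out fits (2 without Con male 5). Over all genes 544 were called there at first, 1485 by DESeq2, 1362 without regard to strand, 338 without a filter, 196 with the offsets, 62 in the fit of all libraries, 37 with the cortical score, 32 at 0.05, 12 with the block (with or without offsets), 11 with the unassigned share and 20 (without Con female 4) to 1395 (without Con male 5) with 1 animal left out. Between MSUS sexes 28 were called, 159 by DESeq2, 71 with the library set, 16 with at least 10 counts in every library, 12 with block and offsets and 14 to 64 with 1 animal left out. In females 3102 (without MSUS female 3) to 5737 (without MSUS female 1) were called with 1 animal left out. The causes were not tested.

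The replicate block kept 3 members in females (3800 genes in all) and changed no other member call. Same-numbered animals did not consistently deviate together. In females r ran from −0.272 to 0.285, was over 0.1 in 3 of 6 pairs, and 2 of 6 were closest to their own number. It ran from −0.407 to 0.282 in males, −0.373 to 0.379 between Con sexes and −0.28 to 0.43 between MSUS sexes. Same-numbered animals also belonged to the same library set. Whether they shared a litter or handling was not tested.

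Some log2 fold changes changed sign. With the cortical score these were Cnr1 in females (0.21), Napepld in males (−0.011), Cnr1 between Con sexes (−0.16), Cnr1, Mgll, Dagla and Abhd6 between MSUS sexes (0.0092, 0.032, 0.058 and 0.073) and Cnr1 in the interaction (0.18). With the unassigned share they were Napepld in males (−0.024), Cnr1, Mgll and Daglb between Con sexes (−0.032, −0.010 and −0.060), Dagla and Abhd6 between MSUS sexes (0.084 and 0.056) and Cnr1, Dagla and Abhd6 in the interaction (0.064, 0.0010 and 0.018). With the offsets Dagla and Abhd6 between MSUS sexes were 0.032 and 0.0082, and 0.039 and 0.019 with the block added. Dagla in males was 0.00080 with DESeq2, 0.00082 with its size factors and 0.00255 without regard to strand.

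Leaving out 1 animal gave these ranges across 0. In males they were −0.045 to 0.25 for Cnr1, −0.037 to 0.47 for Faah, −0.082 to 0.0011 for Mgll, −0.065 to 0.057 for Dagla, −0.085 to 0.10 for Napepld and −0.042 to 0.077 for Abhd6. Cnr1 between Con sexes ran from −0.13 to 0.27, and between MSUS sexes Dagla ran from −0.066 to 0.048 and Abhd6 from −0.045 to 0.064. The Dagla to Mgll ratio ran from −0.082 to 0.024 in females and from −0.017 to 0.090 in males. Of the other values for single members, 870 kept sign and side of the threshold, 24 lost a call and 13 gained one. With 6 animals a group and the spread of Cnr1 and Faah, SEs were 0.24 to 0.30 in comparisons of 2 groups, so changes of that size could not be told from 0.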
